A study of Homo sapiens with 6 samples.

Results

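The genes described here encode proteins of the kinetochore and of the cohesin, condensin and SMC5-SMC6 complexes. They were chosen by name, with earlier results of these data known, as 52 gene symbols matched to the Ensembl identifiers of the count table. All 52 had a row among the 58735 rows of the table, and all 52 had enough counts to enter the test, which covered 13503 genes. Of the 52 genes, 27 belong to the kinetochore, 13 to cohesin, 8 to condensin and 4 to SMC5-SMC6.

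PolyA transcripts were sequenced from RKO cells, a line grown from a human colorectal carcinoma. There were 3 libraries from cells given EZA and 3 from cells given DMSO, the solvent, and the comparison asked which transcripts differed between them. EZA is named by these letters alone, and how much was given, and for how long, is not given in the sources used here. Nothing beyond the word biological says how the replicates were made, so the p-values cover the spread among these 6 libraries, all of 1 cell line, which may be technical. Libraries held 14070611 to 18840954 counts. Epithelial markers were partly present: KRT18, EPCAM, KRT8 and CDX2 could be tested, while CDH1 and CDX1 had 0 counts in all libraries and KRT19 and VIL1 at most 1 count in a library. Fibroblast markers held 0 to 5 counts per library and leukocyte markers 0. EZA replicate 3 was set apart by its mitochondrial share, with 0.203% of its counts in mitochondrial genes against 3.68% to 5.02% elsewhere, and values without it are given where they change a result.

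The kinetochore is the protein structure that joins a centromere to spindle microtubules. Its inner layer, the constitutive centromere-associated network (CCAN), sits on nucleosomes that hold the histone variant CENP-A, and its outer layer, the KNL1, MIS12 and NDC80 complexes, binds microtubules. SMC complexes are rings built on a pair of long ATPases: cohesin holds sister chromatids together and forms chromatin loops, condensin compacts mitotic chromosomes, and SMC5-SMC6 serves DNA repair and replication fork stability. Many of these genes are transcribed mainly in the S, G2 and M phases, so dividing carcinoma cells normally express them.

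Transcripts of 19 of the 52 genes fell in EZA-treated cells and that of 1 gene, MAU2, rose (edgeR quasi-likelihood test, Benjamini-Hochberg adjusted p below 0.05 over all genes tested). Among all genes tested, 7.82% fell and 9.89% rose, against 36.5% and 1.92% of these genes. The genes that fell were spread over the complexes: 9 of 27 in the kinetochore, 5 of 13 in cohesin, 4 of 8 in condensin and 1 of 4 in SMC5-SMC6. The 3 EZA libraries lay below the 3 DMSO libraries in 28 of the 52 genes, and above them in 2. Of all genes tested, 21.7% lay below and 21.0% above. The median log2 fold change, EZA over DMSO, was -0.39 over the 52 genes and -0.01 over all genes tested. The study's own threshold was a log2 fold change of at least 1 in size with an unadjusted p below 0.05. It was applied here to the edgeR fit, while the submitters list DESeq2, so the calls need not be the study's. By it, 6 of the 52 were lower and 0 higher, where 1.96% and 3.77% of all genes tested were. These 6 were CENPE, KNL1, SMC5, CENPK, ESCO2 and NUF2.

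**Figure D1:**
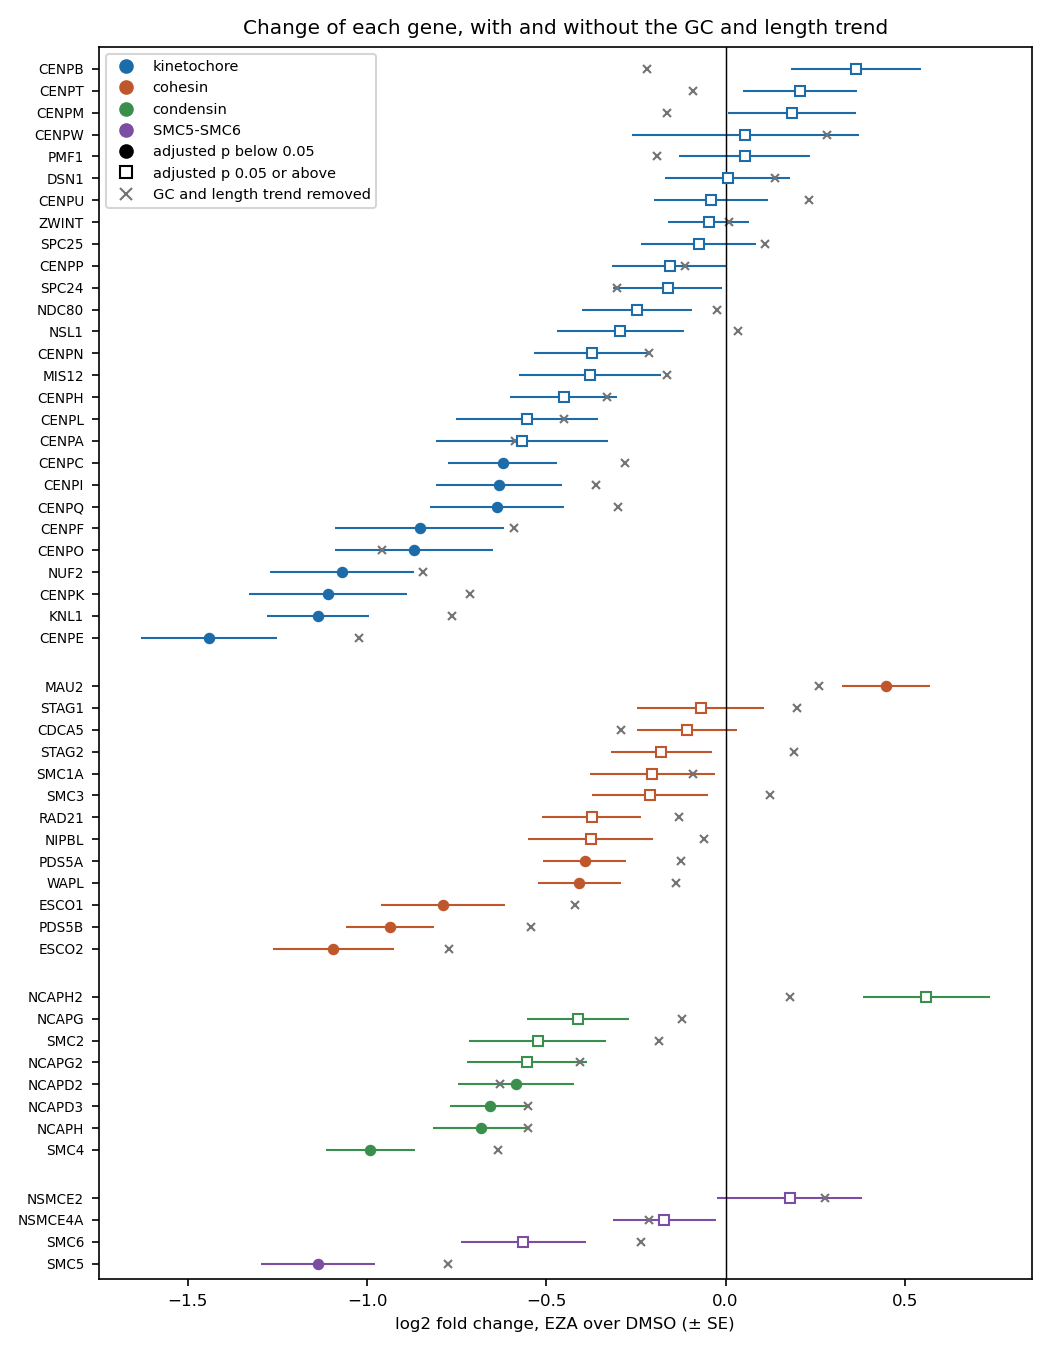
Each row is 1 of the 52 genes, grouped by complex, with the log2 fold change (EZA over DMSO) along the horizontal axis; bars are the SE, filled circles had an adjusted p below 0.05, open squares did not, and crosses give the fold change after removal of the GC and length trend. CENPE lies farthest to the left at -1.44, and MAU2 is the 1 filled circle to the right of 0.

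The number of calls differed with the libraries used. Without DMSO replicate 1, 2 or 3, 5, 9 and 6 of the 52 genes were called lower, where 0.451%, 2.17% and 0.529% of all genes tested were. Without EZA replicate 1, 2 or 3, 11, 11 and 33 were called lower, where 4.38%, 3.86% and 19.2% of all genes tested were. Over the whole table, too, calls were fewest without DMSO replicate 1 and most without EZA replicate 3. CENPE, KNL1, PDS5B, SMC4 and SMC5 were called lower whichever library was left out. All 19 genes had a negative fold change under every alternative run.

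Promoters of several of these genes hold short sequences that match elements of cell-cycle transcription. Of these promoters, 4 are shown because they pair genes that fell with one that did not pass the test. Promoters from RefSeq (GRCh38.p14), from 250 bases before to 50 after the first listed start, were found for 43 of the 52 genes; 8 of the 43 have further starts, which were not used. They were searched on both strands for TTTGAA, the core of the cell-cycle homology region (CHR) bound by the DREAM and MuvB complexes, for CCAAT, the box bound by NF-Y, and for TTTNNCGC, a form of the E2F site. Matches to different motifs did not overlap in any of the 43. Of the genes that fell, CENPE, CENPI, CENPO, NCAPD3, NUF2 and SMC5 held no match in the 250 bases before the start. The other genes that fell and had a promoter held a match there. Whether any match is bound was not tested. The 250 bases before the start are printed 5′ to 3′ in the direction of the gene, with matches in capitals (ATTGG is CCAAT on the other strand). CENPF (chr1:214602945-214603194, plus strand) and CENPK (chr5:65563169-65563418, minus strand) hold 3 CCAAT boxes each, NCAPD2 (chr12:6493852-6494101, plus strand) holds 4 and a CHR, and SPC25 (chr2:168890431-168890680, minus strand), which did not pass the test, holds 2 and a CHR.
CENPF: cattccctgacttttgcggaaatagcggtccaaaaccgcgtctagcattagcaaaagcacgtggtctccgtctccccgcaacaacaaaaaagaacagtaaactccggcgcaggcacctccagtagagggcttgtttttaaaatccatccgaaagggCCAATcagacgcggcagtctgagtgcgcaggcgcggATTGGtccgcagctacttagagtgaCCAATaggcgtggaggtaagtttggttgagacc
CENPK: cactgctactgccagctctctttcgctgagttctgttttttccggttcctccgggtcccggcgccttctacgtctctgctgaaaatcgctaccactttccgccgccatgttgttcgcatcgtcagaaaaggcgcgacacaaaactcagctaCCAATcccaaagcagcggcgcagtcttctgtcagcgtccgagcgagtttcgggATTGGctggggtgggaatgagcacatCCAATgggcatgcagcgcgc
NCAPD2: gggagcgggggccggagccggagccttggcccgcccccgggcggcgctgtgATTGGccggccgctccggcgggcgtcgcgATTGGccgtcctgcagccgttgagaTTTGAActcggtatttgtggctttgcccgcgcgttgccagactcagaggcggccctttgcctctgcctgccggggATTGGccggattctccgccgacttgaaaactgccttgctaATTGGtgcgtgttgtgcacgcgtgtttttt
SPC25: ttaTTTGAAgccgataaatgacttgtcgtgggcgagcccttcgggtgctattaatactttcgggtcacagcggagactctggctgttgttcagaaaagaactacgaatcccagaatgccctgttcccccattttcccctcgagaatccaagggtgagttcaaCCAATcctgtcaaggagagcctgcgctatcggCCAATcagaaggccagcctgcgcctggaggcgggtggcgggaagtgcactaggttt

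Over the 300-base windows, 16 of the 43 promoters (37.2%) held a CHR core, against 15.4% of the 27305 promoters of all genes. The CCAAT box was in 21 of 43 (48.8%, against 35.7%) and the E2F form in 10 of 43 (23.3%, against 6.90%). Among the 16 promoters of genes that fell, 7 held a CHR core, 9 a CCAAT box and 1 the E2F form. Among the other 27 these numbers were 9, 12 and 9. These are counts of letters in a window, given as a description with no test.

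In the inner kinetochore, 5 of 15 genes fell, and the median log2 fold change was -0.45. They were CENPK and CENPI, of the CENP-H/I/K/M part of the CCAN, CENPO and CENPQ, of its CENP-O/P/Q/U part, and CENPC, the scaffold that links centromeric nucleosomes to the MIS12 complex. CENPK (ENSG00000123219, chromosome 5, 65517766 to 65563168, GRCh38) had 13.6, 9.58 and 9.84 TMM-scaled counts per 1000000 counts of the library (CPM) in DMSO replicates 1 to 3 and 5.08, 4.14 and 6.15 CPM in EZA replicates 1 to 3. The groups did not overlap, and the log2 fold change was -1.11 ± 0.22 (SE, n = 3 each; edgeR adjusted p = 0.0143). CENPO (chromosome 2, 24793136 to 24822376) had 25.6, 27.4 and 29.9 CPM in DMSO and 17.4, 17.9 and 9.90 CPM in EZA, lowest in EZA replicate 3, with a log2 fold change of -0.87 ± 0.22 (adjusted p = 0.0305). CENPO shares 1488 exon bases with ADCY3 on the opposite strand, which had 9770 counts over the 6 libraries against 2045 for CENPO, and the libraries do not mark strand, so its count is uncertain.

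CENPQ, CENPI and CENPC changed less, with log2 fold changes of -0.64 ± 0.19, -0.63 ± 0.17 and -0.62 ± 0.15 (adjusted p = 0.0462, 0.0393 and 0.0280). CENPC had 14.9, 13.5 and 15.1 CPM in DMSO and 9.14, 8.72 and 10.4 CPM in EZA. CENPI had 14.3, 12.8 and 13.9 CPM in DMSO and 8.19, 7.62 and 10.7 CPM in EZA. CENPQ had 9.20, 8.30 and 8.25 CPM in DMSO and 4.44, 6.07 and 6.01 CPM in EZA. In none of the 3 did the groups overlap. These calls rest on all libraries: the adjusted p of CENPC, CENPI and CENPQ passed 0.05 when any library other than EZA replicate 3 was left out, and reached 0.139, 0.156 and 0.179. Those of CENPK, without DMSO replicate 1 or 3, and of CENPO, without any DMSO replicate, reached 0.0856 and 0.127.

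The other 10 inner genes did not pass the test. CENPA, the centromeric histone H3 variant, had 16.8, 15.7 and 15.9 CPM in DMSO and 12.6, 13.3 and 6.72 CPM in EZA (log2 fold change -0.57 ± 0.24; edgeR adjusted p = 0.130). The groups did not overlap, but EZA replicate 3 was far below the other EZA libraries, and without it the value was -0.32. CENPB, which binds the CENP-B box of alpha-satellite DNA, had 167, 210 and 190 CPM in DMSO and 205, 215 and 311 CPM in EZA. Its log2 fold change was 0.36 ± 0.18 without a call, and with EZA replicate 3 left out and the GC and length trend removed it was called lower at -0.27 (edgeR adjusted p = 0.000987). CENPW, a histone-fold partner of CENPT, had 30.7, 34.5 and 27.7 CPM in DMSO and 19.4, 25.5 and 51.7 CPM in EZA, so that EZA replicate 3 was above all DMSO libraries and the other EZA libraries were below them. Without EZA replicate 3, CENPW was called lower at -0.46 on the log2 scale (edgeR adjusted p = 0.00755). CENPH, CENPL and CENPN lay at -0.45, -0.55 and -0.37, and CENPP, CENPU, CENPM and CENPT between -0.16 and 0.21. CENPM, at 0.19, and CENPU, at -0.04, took the other sign with EZA replicate 3 left out and that trend removed, with calls at -0.27 and 0.36. Without EZA replicate 3, CENPH, CENPL and CENPN were called lower too.

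In the outer kinetochore and its fibrous corona, 4 of 12 genes fell: CENPE, KNL1, NUF2 and CENPF. CENPE, the plus-end-directed kinesin that moves chromosomes to the spindle equator (ENSG00000138778, chromosome 4, 103105349 to 103198445), had 12.6, 14.7 and 12.6 CPM in DMSO and 4.95, 3.98 and 5.80 CPM in EZA. It had the lowest fold change of the 52 genes, -1.44 ± 0.19 on the log2 scale (SE, n = 3 each; edgeR adjusted p = 0.00394). KNL1, the platform for the BUB kinases of the spindle checkpoint (chromosome 15, 40594020 to 40664342), had 61.6, 56.8 and 67.7 CPM in DMSO and 24.8, 28.4 and 31.5 CPM in EZA. All EZA libraries of KNL1 lay well below the lowest DMSO library (log2 fold change -1.14 ± 0.14; adjusted p = 0.00334).

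NUF2, a chain of the microtubule-binding NDC80 complex (chromosome 1, 163266576 to 163355764), had 23.8, 22.0 and 24.9 CPM in DMSO and 12.1, 13.6 and 7.92 CPM in EZA (log2 fold change -1.07 ± 0.20; edgeR adjusted p = 0.0122). CENPF, a large protein of the corona that is most abundant in G2 and M, had 119, 126 and 121 CPM in DMSO and 57.3, 48.5 and 97.3 CPM in EZA. EZA replicate 3 was the highest of its group in CENPF, and the log2 fold change was -0.85 ± 0.24 with it (adjusted p = 0.0390) and -1.21 without it. The call of NUF2 was lost without DMSO replicate 1 or 3 (adjusted p up to 0.0765), and that of CENPF without any library other than EZA replicate 3 (up to 0.140).

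The partners of these proteins in the outer layer did not pass the test. NDC80, which coils with NUF2, had 24.7, 17.9 and 21.4 CPM in DMSO and 18.2, 18.3 and 17.4 CPM in EZA, and the groups overlapped. ZWINT, the partner of KNL1, was at 84.6, 91.5 and 85.5 CPM in DMSO and 82.5, 86.0 and 84.5 CPM in EZA (log2 fold change -0.05 ± 0.11; edgeR adjusted p = 0.798). SPC24 and SPC25, the centromere-side chains of the NDC80 complex, lay at -0.16 ± 0.15 and -0.07 ± 0.16. The MIS12 complex, which bridges the inner and outer layers, had 0 of 4 genes past the test in either direction, with log2 fold changes of -0.38 for MIS12, -0.29 for NSL1, 0.01 for DSN1 and 0.05 for PMF1. None of the 4 had an unadjusted p below 0.05 in edgeR, and none was called in DESeq2. These 4 were not called without EZA replicate 3 either.

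**Figure D2:**
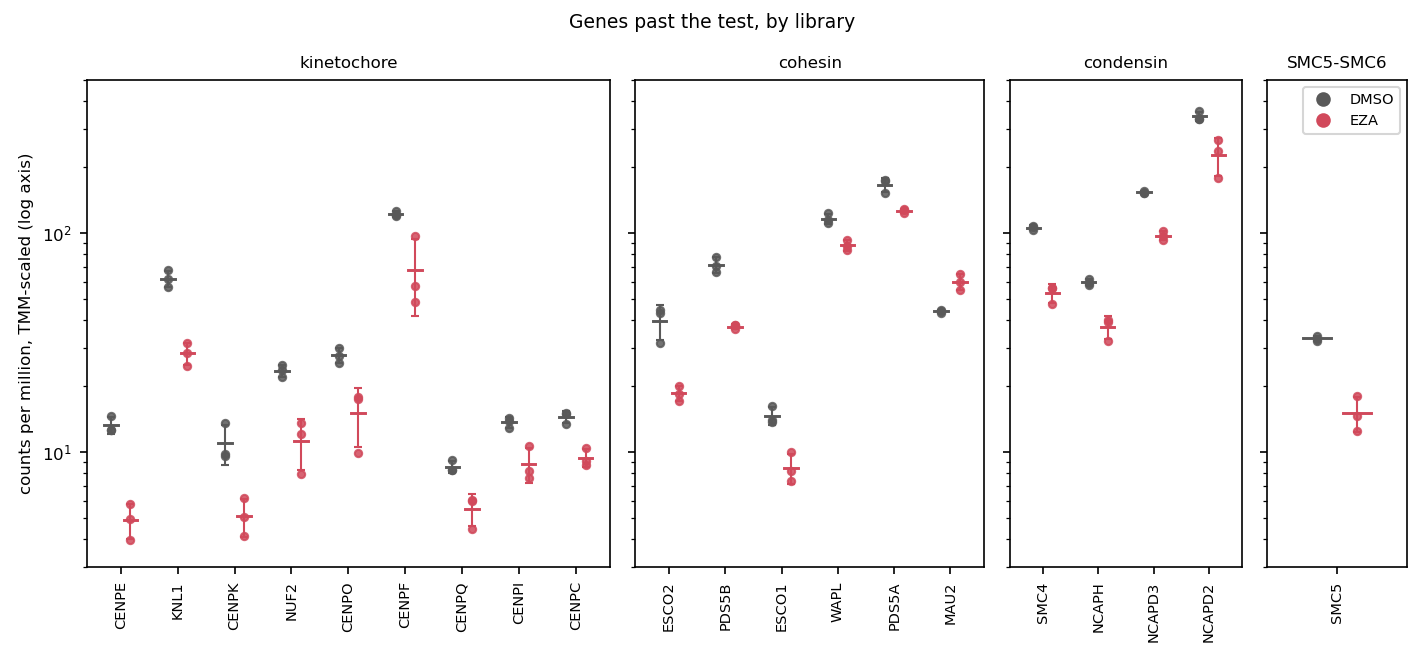
Points give the TMM-scaled CPM of each library, on a logarithmic axis, for the 20 genes that passed the test, grouped by complex; horizontal bars are group means and whiskers 1 SD (n = 3 each). None of the 20 has overlapping groups, from CENPE, at 4.95, 3.98 and 5.80 CPM in EZA, to NCAPD2, at 236, 179 and 267 CPM.

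With all libraries, the calls in cohesin split by role. Of the 7 genes of the ring and its loader, 0 fell and 1 rose, with a median log2 fold change of -0.21, while of the 6 genes of ring release and acetylation 5 fell, with a median of -0.60. Among all genes tested, 7.82% fell and 9.89% rose. Without EZA replicate 3, 6 of the 7 and 5 of the 6 were called lower, against 19.2% of all genes tested. With the GC and length trend removed, 0 of the 7 and 2 of the 6 were, against 5.18%. No test of the difference between the roles was made. The kleisin RAD21, which closes the ring, had 559, 464 and 528 CPM in DMSO and 426, 415 and 356 CPM in EZA, the groups not overlapping (log2 fold change -0.37 ± 0.14; edgeR adjusted p = 0.0924). The ATPases SMC1A and SMC3 and the STAG1 and STAG2 subunits lay between -0.21 and -0.07, and NIPBL, the large subunit of the loader, at -0.38. RAD21 was the 1 gene of these 6 with an unadjusted p below 0.05 in edgeR, and none of the 6 was called in DESeq2. MAU2, the partner of NIPBL in the loader (chromosome 19, 19320829 to 19358754), went the other way, with 43.4, 43.9 and 44.6 CPM in DMSO and 65.2, 59.6 and 55.1 CPM in EZA (log2 fold change 0.45 ± 0.12; adjusted p = 0.0381).

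Leaving out EZA replicate 3 changed the calls of the ring genes. SMC3 had 77.0, 72.7 and 72.9 CPM in DMSO and 54.7, 57.8 and 80.0 CPM in EZA, and STAG1 had 72.0, 63.6 and 69.3 CPM in DMSO and 54.8, 56.6 and 83.9 CPM in EZA. In both, EZA replicate 3 lay above all DMSO libraries and the other EZA libraries below them. Without EZA replicate 3 all 6 ring and loader genes other than MAU2 were called lower, at -0.59 for NIPBL and -0.29 to -0.40 for the others, where 19.2% of all genes tested were called lower and 19.1% higher. With the trends of GC content and length removed as well, SMC1A alone of the 6 was called lower (18.1% of all genes tested were lower and 20.1% higher). STAG1 shares 1661 exon bases with PCCB on the opposite strand, which had 12585 counts against 6306.

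Among the regulators of cohesin, ESCO2 and ESCO1, the acetyltransferases that lock the ring by modifying SMC3, both fell. ESCO2 (ENSG00000171320, chromosome 8, 27771949 to 27812640) had 44.6, 31.3 and 43.1 CPM in DMSO and 17.1, 20.1 and 18.5 CPM in EZA (log2 fold change -1.09 ± 0.17; edgeR adjusted p = 0.00669). ESCO1 had 16.3, 13.7 and 14.1 CPM in DMSO and 7.36, 8.17 and 9.97 CPM in EZA (-0.79 ± 0.17; adjusted p = 0.0196). PDS5B, which binds the ring and takes part in both its release and its acetylation (chromosome 13, 32586452 to 32778019), had 77.8, 66.3 and 70.8 CPM in DMSO and 36.5, 37.9 and 38.0 CPM in EZA. Its EZA libraries were close to each other and far below all DMSO libraries (log2 fold change -0.94 ± 0.12; adjusted p = 0.00391).

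WAPL, which opens the ring, and PDS5A, the paralog of PDS5B, changed less, with log2 fold changes of -0.41 ± 0.12 and -0.39 ± 0.12 (edgeR adjusted p = 0.0427 and 0.0474). WAPL had 123, 111 and 115 CPM in DMSO and 86.9, 83.6 and 93.0 CPM in EZA. PDS5A had 174, 152 and 172 CPM in DMSO and 127, 123 and 129 CPM in EZA. In both, the groups did not overlap and the EZA replicates were close. CDCA5 (sororin), which blocks WAPL in G2, was the 1 regulator that did not pass, with 143, 151 and 149 CPM in DMSO and 118, 132 and 161 CPM in EZA. With EZA replicate 3 left out and the GC and length trend removed, CDCA5 was called lower (edgeR adjusted p = 2.07e-05). Leaving out any library other than EZA replicate 3 ended the calls of WAPL, PDS5A, ESCO1 and MAU2 (adjusted p up to 0.174, 0.218, 0.107 and 0.166). That of ESCO2 ended without DMSO replicate 1 (0.0546). With the GC and length trend removed, ESCO2 and PDS5B were called lower, at -0.77 and -0.54, and WAPL, PDS5A, ESCO1 and MAU2 lay at -0.14, -0.12, -0.42 and 0.26 without a call.

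Condensin had the lowest median of the 4 complexes, -0.57 on the log2 scale. In 7 of its 8 genes all EZA libraries lay below all DMSO libraries, as they did in 21.7% of all genes tested. SMC4, an ATPase shared by both condensins (ENSG00000113810, chromosome 3, 160399274 to 160434954), had 108, 103 and 107 CPM in DMSO and 47.4, 56.3 and 56.3 CPM in EZA (log2 fold change -0.99 ± 0.12; edgeR adjusted p = 0.00334). Its dimer partner SMC2 had 76.6, 74.5 and 87.6 CPM in DMSO and 41.9, 53.0 and 71.1 CPM in EZA, with a wide spread in EZA (-0.52 ± 0.19; adjusted p = 0.0881). Without EZA replicate 3, SMC2 was called lower at -0.74.

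Of the 6 subunits that belong to only 1 of the condensins, 2 of 3 fell in condensin I and 1 of 3 in condensin II. Of condensin I, which reaches chromosomes after the nuclear envelope breaks down, the kleisin NCAPH had 61.6, 58.1 and 59.4 CPM in DMSO and 40.1, 39.4 and 32.1 CPM in EZA (log2 fold change -0.68 ± 0.13; edgeR adjusted p = 0.0138). NCAPD2, its HEAT-repeat subunit, had 332, 360 and 330 CPM in DMSO and 236, 179 and 267 CPM in EZA (-0.58 ± 0.16; adjusted p = 0.0384). NCAPG, the other HEAT-repeat subunit, lay at -0.41 ± 0.14 (0.0776), and without EZA replicate 3 it was called lower (edgeR adjusted p = 0.000696). Of condensin II, which stays in the nucleus through interphase, NCAPD3 (chromosome 11, 134150113 to 134225504) had 152, 152 and 156 CPM in DMSO and 102, 93.4 and 96.6 CPM in EZA. The replicates of NCAPD3 were close in both groups (-0.66 ± 0.11; adjusted p = 0.00885).

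NCAPG2 lay at -0.55 ± 0.17 (edgeR adjusted p = 0.0502) and was called lower in DESeq2 and in limma-voom, among other settings. NCAPH2, the kleisin of condensin II, stood apart from the rest of the complex, with 58.4, 70.6 and 67.9 CPM in DMSO and 83.2, 84.3 and 123 CPM in EZA (log2 fold change 0.56 ± 0.18; adjusted p = 0.0581). Its transcript has a GC content of 61.3%, the highest of the condensin genes, and its value was 0.18 once the GC and length trend had been removed. The calls of NCAPD2, NCAPH and NCAPD3 were lost without DMSO replicate 1 or 3, that of NCAPH also without DMSO replicate 2 and that of NCAPD2 without any library other than EZA replicate 3 (adjusted p up to 0.139, 0.0856 and 0.0701). NCAPD2 and NCAPD3 share 383 and 249 exon bases with MRPL51 and VPS26B on the opposite strands.

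In the SMC5-SMC6 complex, SMC5 fell and the other 3 genes did not pass. SMC5 (ENSG00000198887, chromosome 9, 70258978 to 70354873) had 32.3, 33.0 and 33.9 CPM in DMSO and 12.5, 14.7 and 18.0 CPM in EZA (log2 fold change -1.14 ± 0.16; edgeR adjusted p = 0.00470). SMC6, its dimer partner, had 20.3, 17.7 and 20.5 CPM in DMSO and 11.2, 12.2 and 16.3 CPM in EZA, the groups not overlapping (-0.56 ± 0.17; adjusted p = 0.0553). NSMCE2, the SUMO ligase of the complex, and NSMCE4A, its kleisin, lay at 0.18 ± 0.20 and -0.17 ± 0.14 with overlapping groups. Without EZA replicate 3, SMC6 was called lower at -0.73 and NSMCE2 higher at 0.37.

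Since chains of a dimer work in equal numbers, the ratio of CPM of the 2 genes was taken in each library for 5 dimers, chosen after their values were seen. NUF2 over NDC80 was 0.967, 1.23 and 1.16 in DMSO and 0.662, 0.743 and 0.455 in EZA. SMC5 over SMC6 was 1.59, 1.86 and 1.65 in DMSO and 1.11, 1.20 and 1.10 in EZA, and SMC2 over SMC4 was 0.709, 0.724 and 0.818 in DMSO and 0.885, 0.941 and 1.26 in EZA. The groups did not overlap in these 3 ratios, which had an exact two-sided permutation p of 0.1, the smallest that 3 against 3 libraries can give (0.167 adjusted over the 5 ratios). With this floor, and with pairs chosen after their values were seen, the permutation test cannot decide whether the ratios changed. NUF2, SMC5 and SMC4 had passed the edgeR test and NDC80, SMC6 and SMC2 had not, so these ratios are not independent of those calls. How often other gene pairs separate in this way was not tested. In SMC1A over SMC3 and SPC24 over SPC25 the groups overlapped (exact permutation p = 0.9 and 0.8).

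Per transcript length, the 52 genes covered a wide range in untreated cells. In the deposited FPKM, RAD21 was highest with 81.9 ± 7.39 in DMSO (SD, n = 3), then CENPB with 65.4 ± 7.66 and NCAPD2 with 51.5 ± 2.80. The lowest were CENPP with 0.999 ± 0.0487, CENPE with 1.38 ± 0.133 and CENPC with 1.65 ± 0.0920. The level of CENPP is uncertain, because it shares 3720 exon bases with IPPK on the opposite strand and the libraries do not mark strand. IPPK had 2447 counts over all libraries against 899 for CENPP. The SDs of RAD21 and CENPB, and of CENPE and CENPC, leave the order of these neighbours close. The median over genes was 16.3 FPKM in condensin, 13.3 in cohesin, 6.88 in the kinetochore and 6.29 in SMC5-SMC6.

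Transcripts of these genes are poor in GC, with a median of 40.8% against 48.3% over the protein-coding genes tested. Fold changes across the table followed GC content. The median GC content of the canonical transcript was 41.1% in the kinetochore genes, 40.2% in cohesin, 45.04% in condensin and 40.2% in SMC5-SMC6, from 32.8% in CENPK to 66.5% in CENPB. Over the 52 genes, which share the same libraries, Spearman's rho between log2 fold change and GC content was 0.58, and that with transcript length -0.38, as a description. Over the protein-coding genes tested these were 0.54 and -0.26. At a GC content of at most 40%, 11 of 21 genes fell, where 20.1% of the 1980 protein-coding genes tested in that range did. From 40% to 45%, 4 of 14 fell, against 13.1%, and from 45% to 50%, 2 of 7, against 7.60%. From 50% to 55%, 2 of 3 fell, against 4.19%, and these were CENPO and NCAPD2. From 55% to 60%, 0 of 5 fell and 1 rose, where 2.09% of protein-coding genes fell and 16.8% rose. Above 60%, 0 of 2 fell or rose, where 0.774% fell and 31.25% rose. In 39 of the 52 genes the fold change lay below the median of protein-coding genes of the same GC range.

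**Figure D3:**
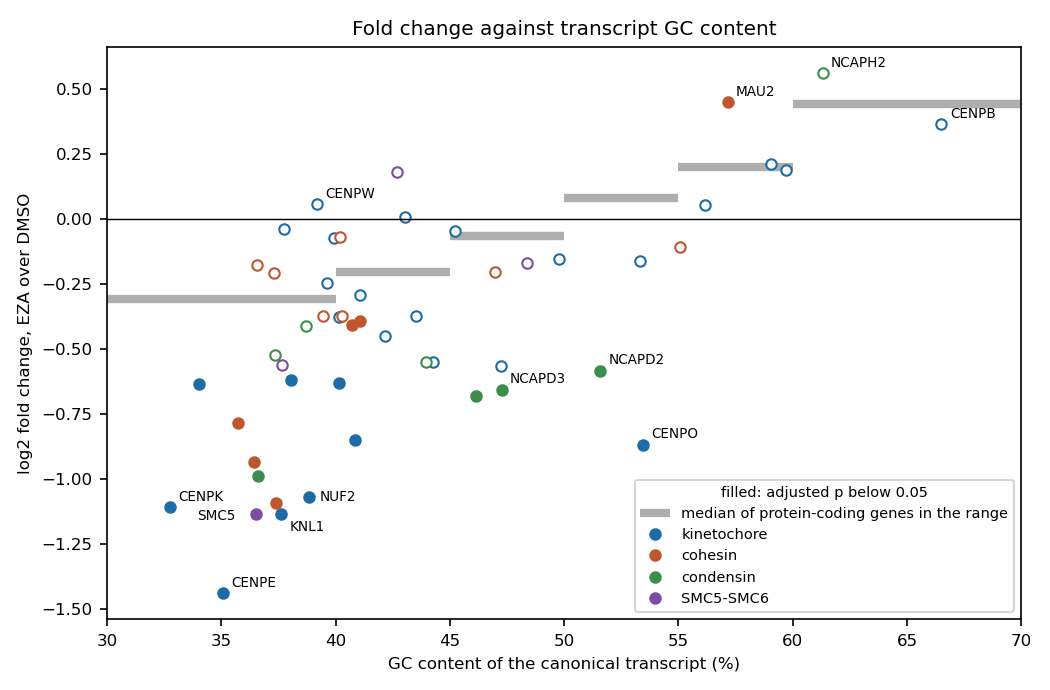
Each point is 1 of the 52 genes, plotted by the GC content of its canonical transcript (horizontal axis, %) and by its log2 fold change (vertical axis, EZA over DMSO); filled points had an adjusted p below 0.05 and grey bars give the median of protein-coding genes in 6 GC ranges. Most points lie below the grey bars, with CENPO and NCAPD2 the 2 filled points between 50% and 55%.

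With the trend of each library's counts with GC content and length removed, 11 of the 52 genes were called lower and 0 higher, where 5.18% and 6.49% of all genes tested were. All 11 were among the 19 called with the trend kept. They were CENPE, KNL1, NUF2 and CENPO of the kinetochore, ESCO2 and PDS5B of cohesin, SMC4, NCAPD2, NCAPH and NCAPD3 of condensin, and SMC5. The median moved from -0.37 to -0.22 in the kinetochore, from -0.37 to -0.12 in cohesin and from -0.37 to -0.22 in SMC5-SMC6, and from -0.57 to -0.48 in condensin, where the same 4 genes were called. CENPE lay at -1.02 and KNL1 at -0.76 with the trend removed, and CENPC, CENPI and CENPQ at -0.28, -0.36 and -0.30. How much of the trend belongs to the treatment and how much to the libraries cannot be told apart here.

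The EZA libraries differed in how far each role group lay from the DMSO mean. The median log2 difference of the ring and loader genes of cohesin was -0.28, -0.35 and 0.09 in EZA replicates 1 to 3. That of condensin was -0.60, -0.66 and -0.30, and that of cohesin release and acetylation -0.70, -0.66 and -0.46. The outer kinetochore was at -0.24, -0.18 and -0.37 and the inner kinetochore at -0.58, -0.34 and -0.33. SMC5-SMC6 was at -0.45, -0.37 and -0.33. By these medians EZA replicate 3 was nearest to DMSO except in the outer kinetochore, and by little in the inner. The parts of the outer kinetochore differed. CENPE and CENPF, at -1.25, -1.52 and -0.76, and KNL1 with ZWINT, at -0.70, -0.57 and -0.51, were nearest in EZA replicate 3. The NDC80 complex, at -0.24, -0.12 and -0.36, and the MIS12 complex, at -0.20, -0.12 and -0.46, were farthest in it. Without EZA replicate 3, 33 of the 52 genes were called lower and 3 higher, against 19.2% and 19.1% of all genes tested, the 3 being MAU2, NCAPH2 and NSMCE2. All 19 genes called lower with all libraries were among the 33.

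**Figure D4:**
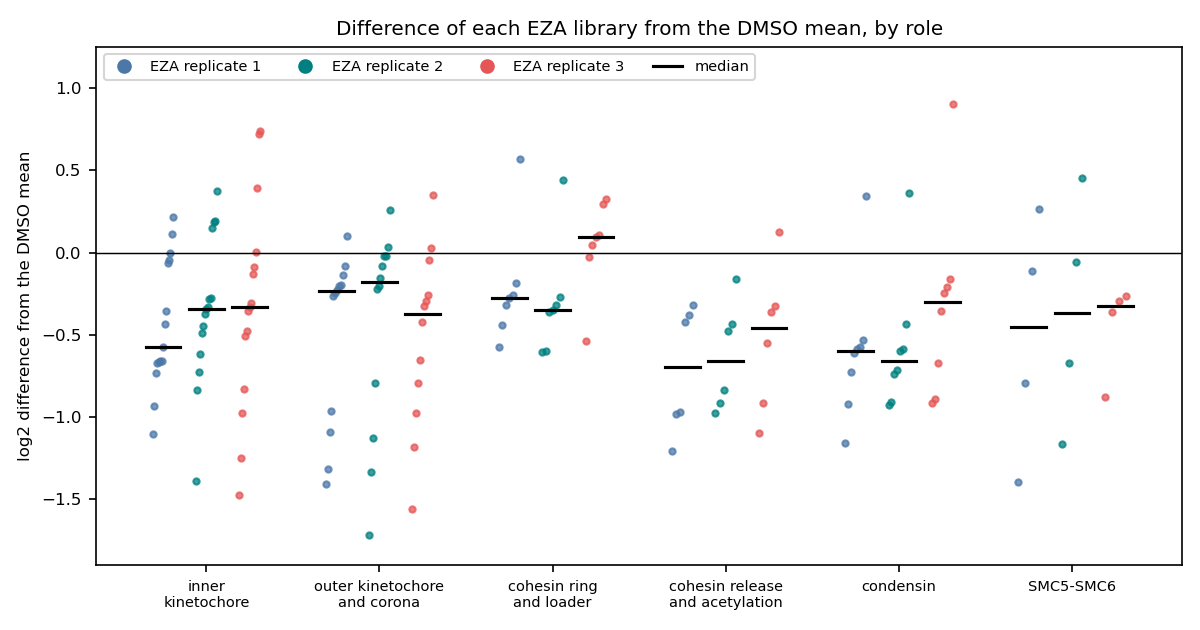
Points give the log2 difference in CPM of each gene from the DMSO mean in EZA replicates 1, 2 and 3, for 6 role groups on the horizontal axis, and black bars are medians. The median of the cohesin ring and loader lies at 0.09 in EZA replicate 3 and at -0.28 and -0.35 in the other EZA libraries.

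Genes that work with these complexes, from a list that does not overlap the 52, were counted in the same way. This list, like the 52, was chosen with earlier results of these data known, so its counts are no independent support. Of 35 such genes 33 could be tested, and 12 fell and 2 rose, against 7.82% and 9.89% of all genes tested, with a median log2 fold change of -0.53. Once the GC and length trend had been removed, 7 were called lower and 1 higher, against 5.18% and 6.49% of all genes tested. The calls of ITGB3BP, KNTC1, SGO1, PTTG1, TOP2A, SMCHD1 and NSMCE1 then ended, and ESPL1 was called lower. SGO2, a shugoshin that protects centromeric cohesin, had 21.0, 18.9 and 16.6 CPM in DMSO and 6.09, 7.01 and 8.70 CPM in EZA, without overlap, and fell by 1.37 on the log2 scale (edgeR adjusted p = 0.00409). SGO1, the other shugoshin, fell by 1.07 and PTTG1 (securin), the inhibitor of separase, by 0.67. ESPL1, separase itself, had a log2 fold change of -0.33 without a call. ITGB3BP (CENP-R), a further CCAN subunit, fell by 0.83. HJURP, the CENP-A chaperone, lay at -0.54 (edgeR adjusted p = 0.0585).

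The SKA complex tracks microtubule ends together with NDC80. SKA3 had 57.9, 44.6 and 52.9 CPM in DMSO and 27.0, 27.1 and 13.9 CPM in EZA (log2 fold change -1.19 ± 0.25; edgeR adjusted p = 0.0165), and SKA2 lay at -0.76 ± 0.14 (0.0110). SKA1 lay at -0.10 ± 0.19 and did not pass. KNTC1 (ROD) fell by 0.54, and its partners ZW10 and ZWILCH in the same complex lay at -0.36 and -0.46 without a call. Of the chromosome condensation partners MKI67 (Ki-67), which coats mitotic chromosomes, fell by 1.10, TOP2A, the topoisomerase that decatenates sister chromatids, by 0.66 and SMCHD1 by 0.53.

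Among the other SMC5-SMC6 genes, SLF1, which brings the complex to damaged DNA, fell by 1.16, and NSMCE1, a RING-finger subunit, rose by 0.70 ± 0.20 on the log2 scale (edgeR adjusted p = 0.0413). EID3, a germline paralog of NSMCE4A, had 0.688, 1.53 and 0.895 CPM in DMSO and 6.54, 4.20 and 19.2 CPM in EZA, a log2 fold change of 3.25 ± 0.61 (adjusted p = 0.0124). EID3 (chromosome 12, 104303739 to 104305205) lies within TXNRD1 (104215779 to 104350307) on the same strand. TXNRD1 had 717 ± 34.4 CPM in DMSO and 3249 ± 276 CPM in EZA (SD, n = 3 each), so the group means of both genes rose. Single libraries did not always follow. In DMSO replicate 2 EID3 was highest of its group and TXNRD1 lowest, while in EZA replicate 3 both were highest. Whether reads of TXNRD1 entered the count of EID3 was not tested. Of the 14 calls among these partner genes, that of SGO2 held whichever library was left out. Without DMSO replicate 1, 12 of the 14 ended, with 11 of the 12 ending without at least 1 further library (adjusted p of up to 0.0551 for SLF1 and 0.176 for SMCHD1).

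Of 10 G2/M markers 6 fell, where 7.82% of all genes tested did, with a median log2 fold change of -0.76. In all 10 the EZA libraries lay below the DMSO libraries, as they did in 21.7% of all genes tested. Of 10 markers of G1/S and S phase 3 fell and 1 rose, where 9.89% of all genes tested rose, with a median of -0.20. With the GC and length trend removed, 6 of the G2/M markers were called lower, and 1 of the G1/S and S phase markers lower and 1 higher. In that fit 5.18% of all genes tested were called lower and 6.49% higher. Their part in the changes of kinetochore and SMC genes was not tested. In RNA from whole cultures, fewer cells in G2 and M and less RNA per cell cannot be told apart.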

How the data were processed

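RNA from 6 RKO libraries, 3 per group by their titles, was made without strand information, per the labels. FastQC, HISAT2, featureCounts, DESeq2 and GRCh38 are listed in the submitters' processing notes; the version of each, like its options and the annotation, is not given in the sources used here. For each Ensembl gene the authors deposited read counts as whole numbers and FPKM values, which rest on a single length for a gene and a single total for a library. Tests used the counts; FPKM served only to compare levels between genes.

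Positions, symbols and the GC content and length of Ensembl canonical transcripts came from GENCODE 44 (GRCh38). Of 58735 identifiers 58207 were found there; a repeated symbol went to the identifier with most counts. After filterByExpr and TMM scaling, edgeR's robust quasi-likelihood test (two-sided, no covariates) was run and adjusted over 13503 genes. Standard errors derive from the F statistic, and CPM are TMM-scaled. The common biological coefficient of variation was 18.4%. Replicates differed by more than counting noise (chi-square per degree of freedom 5.10 to 127), so none was counted as a copy. Trends with GC content and length were removed by lowess (span 0.3) as offsets.

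The members and lists were chosen with earlier results of these data known. Full values were given, by rule, to up to 5 called genes of each role group with the largest change, genes called against their complex, and up to 3 called partner genes per list; other genes named with values were chosen after these were seen, to account for the remaining members. EZA against DMSO was simulated with 13503 genes. The test recovered 91 of 100 genes changed 2-fold and 100 of 100 changed 4-fold, with 10 false calls. The simulation gave all genes and libraries the same spread, with no GC trend and no library set apart as EZA replicate 3 was. With a GC trend put on the EZA libraries there were 2301 calls, and 196 once the trend was removed. The first figures may therefore be better than these data allow. Versions were DESeq2 1.42.0, limma 3.58.1 and edgeR 4.0.16 in R 4.3.3, and SciPy 1.17.1 and pandas 2.3.3 in Python 3.11.15. The values of 1 partner gene, which is included in the counts, are not reported here.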

Additional observations from a re-analysis of the deposited data

How the results depend on the processing

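Over 16 alternatives of the fit, 694 values of these genes kept their side of the threshold. Of the rest, 97 lost a call, 37 gained one and 4 reversed. Among the 694, 48 changed sign without a call. In all, 14 genes changed sign in some alternative. No gene called lower changed sign. CENPE, KNL1, SMC4 and SMC5 were called in all 16. With EZA replicate 3 left out and the trend of GC content and length removed, CENPB lay at -0.27, CENPM at -0.27, CENPU at 0.36 and, among the partner genes, CENPX at -0.34 and DDX11, which has near-identical copies, at -0.21, all past the threshold on the other side; CENPW ran from -0.46 without EZA replicate 3, where it reversed, to 0.32 without EZA replicate 1. The cause was not tested.

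Without the trend, 11 genes were lower and 0 higher (kinetochore 4 lower, cohesin 2; partner genes 7 lower, 1 higher; all genes 699 lower, 877 higher). The medians were -0.22 for the kinetochore, -0.12 for cohesin and -0.22 for SMC5-SMC6, and rho with GC content was 0.18. With EZA replicate 3 also left out there were 25 lower and 3 higher, 2 SMC5-SMC6 genes lower, 21 partner genes lower, 2502 and 2768 of all genes lower and higher, medians of -0.28, -0.13 and -0.25, and a rho of 0.28. Under the study's threshold in the edgeR fit, the 6 lower were 4 of the kinetochore, 1 of cohesin, 0 of condensin and 1 of SMC5-SMC6, with 0 higher. Of the partner genes 6 were lower and 1 higher, and of all genes 265 and 509. DESeq2 called 2 of the 52 genes higher and 2 SMC5-SMC6 genes lower. Without a filter on low counts, 3 cohesin and 2 SMC5-SMC6 genes were lower. Scaling by library size alone called 0 of the 52 and 1 partner gene higher, with a kinetochore median of -0.42, and split all genes into 1059 higher and 1270 lower, against 1336 and 1056. In limma-voom 1 partner gene was higher.

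Leaving out 1 library gave 5 to 33 genes lower and 0 to 3 higher: 2 to 13 in the kinetochore, 1 to 11 in cohesin, 1 to 7 in condensin and 1 to 2 in SMC5-SMC6. The kinetochore median ran from -0.45 to -0.29, partner genes from 2 to 20 lower and 0 to 2 higher, and all genes from 62 to 2649 lower and 158 to 2640 higher. The highest counts came without EZA replicate 3 and the lowest without DMSO replicate 1.

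No clear pairing by replicate number was seen: deviations of same-numbered libraries correlated at 0.03, -0.17 and 0.03, and not every library correlated best with its own number. With 3 libraries a group, these values cannot exclude pairing. With the replicate number as a block, 16 genes were lower and 0 higher, with 3 in cohesin. With the block and the trend removed, 6 were lower and 0 higher (kinetochore 2, cohesin 1, condensin 2), 4 partner genes lower and 1 higher, 259 and 363 of all genes, the medians -0.22, -0.12 and -0.23 and rho 0.19.

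Precision was limited by 3 libraries a group, 1 of them apart from the rest; counting error was smaller than the spread between replicates.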
